A study of Mus musculus with 9 samples.

Results

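Oxidative phosphorylation subunits are the proteins that make up complexes I to V of the inner mitochondrial membrane. They were taken by gene symbol from a table of liver RNA, by a pattern over the subunit names that begin with Nduf, Sdh, Uqcr, Cox or Atp5. In all, 77 of 18148 symbols matched, and 76 of them were among the 10388 genes kept for testing. The exception was Cox6a2, a subunit isoform known from heart and skeletal muscle, whose highest value was 0.31. By complex, 36 tested members belonged to complex I, 4 to complex II, 8 to complex III, 11 to complex IV and 17 to complex V. Ndufa4 was kept with complex I because of its symbol, although the protein is now placed in complex IV.

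The libraries came from liver of C57BL/6J mice gavaged for 8 weeks, 3 libraries to a group. Control mice received distilled water. The DEHP group received di(2-ethylhexyl) phthalate, a plasticizer that activates the nuclear receptor PPAR-alpha in rodent liver, at 1500 mg/kg/d in corn oil. The DEHP_GTP group received that same dose in corn oil together with 70 mg/kg of green tea polyphenols. Its libraries are titled Treatment in the labels. The design also has groups with only corn oil or only polyphenols, which were not analysed here, and effects of the phthalate therefore cannot be told apart from those of corn oil. Nothing in the labels states whether each library is a different mouse. All p-values thus reflect the spread among the sequenced samples, part or all of which may be technical.

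Complexes I and II pass electrons from NADH and succinate to coenzyme Q, complex III passes them on to cytochrome c, and complex IV, cytochrome c oxidase, hands them to oxygen. Complexes I, III and IV pump protons as they do so, and complex V, the ATP synthase, lets the protons flow back and makes ATP. Most subunits are encoded in the nucleus and imported, while a few central ones come from mitochondrial DNA. The 13 of these that were looked up by symbol had no row in the table of values. In liver these complexes oxidise the products of fatty acid breakdown, a process that PPAR-alpha agonists are known to raise.

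Values are the authors' deposited signal, which appears from the values to be scaled for depth and transcript length. Totals over all genes ran from 789076 to 863300 per library, and the number of reads is unknown. Albumin (Alb), the main secreted hepatocyte protein, was at 38289 or more in all 9 libraries, while the 7 muscle markers present in the table summed to at most 0.44. Fat cell transcripts marked 2 Control libraries. The brown fat uncoupling protein, Ucp1, stood at 50.3 and 36.2 in Control replicates 1 and 2 and was listed at 0 in the other 7. Cox8b, an isoform of complex IV found in muscle and brown fat, stood at 129 and 127 in those libraries and at 0.65 or less elsewhere. Over the whole list of 8 brown adipocyte markers, values summed to 290.1, 280.1 and 32.6 in Control, 92.3 to 178 in DEHP and 52.1 to 150.1 in DEHP_GTP libraries. Most of these sums in treated libraries came from Elovl3, at 24.5 to 45.2 in Control, 68.4 to 149 in DEHP and 38.8 to 134 in DEHP_GTP libraries. The 8 adipocyte markers summed to 829.9, 1415 and 14.25 in Control, 49.1 to 369 in DEHP and 27.1 to 59.2 in DEHP_GTP libraries. Major urinary protein (Mup) genes, which encode abundant secreted proteins, took 16.1% to 20.3% of the total in Control, 2.37% to 8.49% in DEHP and 6.53% to 11.6% in DEHP_GTP libraries. These shares move with the groups and enter every comparison through the library totals, so for each comparison the members' count and median are also given with Mup genes left out of the totals. In bulk tissue, fewer cells of a type and less RNA per cell cannot be told apart.

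Promoters were read from RefSeq (GRCm38.p6), as 250 bases before to 50 bases after each annotated start, and 65 of the 76 tested members had an entry. Shown here are the member with the smallest p against Control in each complex that had an entry, since these carry the rise described below, and Cox6b2, which had the largest fold change. Capitals mark matches to 4 motifs of factors known for respiratory genes, searched on both strands: CATGCGC for NRF1, CCGGAAG for the ETS factor GABPA, TCAAGGTCA for ERR-alpha and ATGGCGGC for YY1.
Ndufa5, chr6:24527477-24527776, minus strand: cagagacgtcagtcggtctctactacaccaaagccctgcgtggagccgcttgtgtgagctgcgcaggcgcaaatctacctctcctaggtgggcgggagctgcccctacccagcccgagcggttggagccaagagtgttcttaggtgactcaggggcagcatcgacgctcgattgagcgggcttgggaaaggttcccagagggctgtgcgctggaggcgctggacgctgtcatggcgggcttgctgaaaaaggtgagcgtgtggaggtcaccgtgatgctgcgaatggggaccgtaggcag
Sdhd, chr9:50603800-50604099, minus strand: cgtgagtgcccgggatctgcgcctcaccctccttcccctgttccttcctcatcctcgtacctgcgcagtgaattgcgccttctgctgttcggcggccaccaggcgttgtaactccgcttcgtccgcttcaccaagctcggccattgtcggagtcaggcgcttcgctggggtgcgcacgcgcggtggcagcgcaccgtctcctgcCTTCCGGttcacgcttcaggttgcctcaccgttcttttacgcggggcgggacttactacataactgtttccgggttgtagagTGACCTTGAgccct
Uqcr11, chr10:80406772-80407071, minus strand: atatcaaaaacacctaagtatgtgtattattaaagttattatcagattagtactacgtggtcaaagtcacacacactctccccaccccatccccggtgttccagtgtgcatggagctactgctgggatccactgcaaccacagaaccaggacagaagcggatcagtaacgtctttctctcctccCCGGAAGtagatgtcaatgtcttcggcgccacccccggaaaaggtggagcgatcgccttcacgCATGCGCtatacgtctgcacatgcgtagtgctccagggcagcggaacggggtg
Cox7b, chrX:106015450-106015749, plus strand: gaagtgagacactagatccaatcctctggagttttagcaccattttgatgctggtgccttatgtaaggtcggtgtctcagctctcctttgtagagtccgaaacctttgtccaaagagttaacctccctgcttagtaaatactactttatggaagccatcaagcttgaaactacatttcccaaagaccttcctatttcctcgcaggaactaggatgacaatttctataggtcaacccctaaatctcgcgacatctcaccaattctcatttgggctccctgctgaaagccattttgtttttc
Atp5pb, chr3:105959214-105959513, minus strand: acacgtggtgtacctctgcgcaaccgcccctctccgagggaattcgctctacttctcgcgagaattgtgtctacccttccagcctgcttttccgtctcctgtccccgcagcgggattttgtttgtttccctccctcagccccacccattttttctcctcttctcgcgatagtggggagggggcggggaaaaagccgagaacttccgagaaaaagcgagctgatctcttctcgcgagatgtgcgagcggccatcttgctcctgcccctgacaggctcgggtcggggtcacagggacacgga
Cox6b2, chr7:4753045-4753344, minus strand: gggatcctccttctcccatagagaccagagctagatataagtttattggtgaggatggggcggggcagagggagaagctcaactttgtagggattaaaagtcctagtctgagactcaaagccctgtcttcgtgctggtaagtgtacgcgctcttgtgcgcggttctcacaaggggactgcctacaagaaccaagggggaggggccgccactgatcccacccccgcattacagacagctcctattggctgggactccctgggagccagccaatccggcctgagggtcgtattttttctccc
The Uqcr11 promoter held an NRF1 and an ETS match on its own strand, and that of Sdhd held an ETS and an ERR-alpha match on the opposite strand. The other 4 promoters held none of these letters. Over the 6 promoters, G and C bases made up 43.3% (Cox7b) to 62.3% (Ndufa5), and CpG dinucleotides numbered 5 (Cox7b) to 29 (Sdhd).

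Each of the 4 motifs matched a larger share of member promoters than of the RefSeq promoter table as a whole. An NRF1 match lay in 20.0% of the 65 member promoters, against 4.04% of 27025 promoters of all genes and 7.51% of 8405 promoters of tested genes. For the ETS letters the shares were 24.6%, 9.12% and 19.5%, and for YY1 they were 9.23%, 2.38% and 5.57%. ERR-alpha matches lay in 2 member promoters, 3.08%, against 0.407% of all promoters. A match to at least 1 of the 4 was found in 30 of 65 members, 46.2%, against 14.5% of all promoters and 29.5% of those of tested genes. Members with and without a match moved to a like extent under DEHP: the median log2 fold change was 0.47 for 13 with an NRF1 match and 0.53 for 52 without, and 0.52 for both 16 with an ETS match and 49 without. These are descriptions of letters in a window and carry no test.

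The first comparison asked how the phthalate in corn oil changed liver RNA relative to water. Subunit transcripts were higher in DEHP libraries across all 5 complexes, by a median of 1.43-fold. Of 76 tested members, 69 rose (90.8%) and none fell at an adjusted p below 0.05 in limma with Benjamini-Hochberg adjustment over all genes. Among all 10388 genes tested, 21.6% were called higher and 3.91% lower. All 3 DEHP libraries lay above all 3 Control libraries in 74 members, where 33.8% of all genes did so. The members' median log2 fold change was 0.52, against 0.12 over all tested genes. With Mup genes left out of the totals, the median was 0.30 and 46 members rose, where 7.74% of all genes did. Of these 46 members, 18 belonged to complex I, 1 to complex II, 6 to complex III, 10 to complex IV and 11 to complex V. Fold changes here are differences of log2(value + 1), which understates the change of low genes.

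Summed values of hepatocyte, of macrophage and of exocrine pancreas markers did not overlap between Control and DEHP libraries. The 8 hepatocyte markers summed to 100800 to 103700 in Control, 77700 to 85770 in DEHP and 78640 to 91940 in DEHP_GTP libraries, and 2 of them fell under DEHP, Alb by 0.40 (limma adjusted p = 0.00995) and Serpina1c by 0.98 (limma adjusted p = 0.0144) on the log2 scale. The 6 markers of Kupffer cells, the liver's macrophages, summed to 50.6 to 58.0 in Control, 65.2 to 97.6 in DEHP and 56.2 to 103.3 in DEHP_GTP libraries. Of these 6, 1 rose under DEHP, the secreted macrophage protein Cd5l (0.69, limma adjusted p = 0.0393). Of all genes, 21.6% rose and 3.91% fell. Cd5l was not called without Mup genes in the totals (limma adjusted p = 0.127), under quantile normalization (0.130) or with the length trend removed (0.104). Serpina1c was not called under quantile normalization (limma adjusted p = 0.643). The rest of the hepatocyte list was not called as reported, and of these Ttr (0.22) and Tat (0.29) lay above 0. Cela1, the tested marker listed for exocrine pancreas, was at 17.5 to 22.5 in Control and 5.98 to 8.24 in DEHP libraries. It fell by 1.37 on the log2 scale (limma adjusted p = 0.000911). No hepatocyte or macrophage marker was at 0 in any library. What part any of these cell types has in the members' rise was not tested.

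As a share of each library's total, the tested members together made up 2.90% ± 0.03 of Control, 4.27% ± 0.04 of DEHP and 3.79% ± 0.36 of DEHP_GTP libraries (SD, n = 3). The Control shares were 2.89%, 2.93% and 2.87%, and the DEHP shares were 4.24%, 4.26% and 4.32%. Both groups were tight and stood clear of each other. In DEHP_GTP the shares were 3.41%, 4.13% and 3.82%, all between the other groups, and they spread more widely than either.

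**Figure D1:**
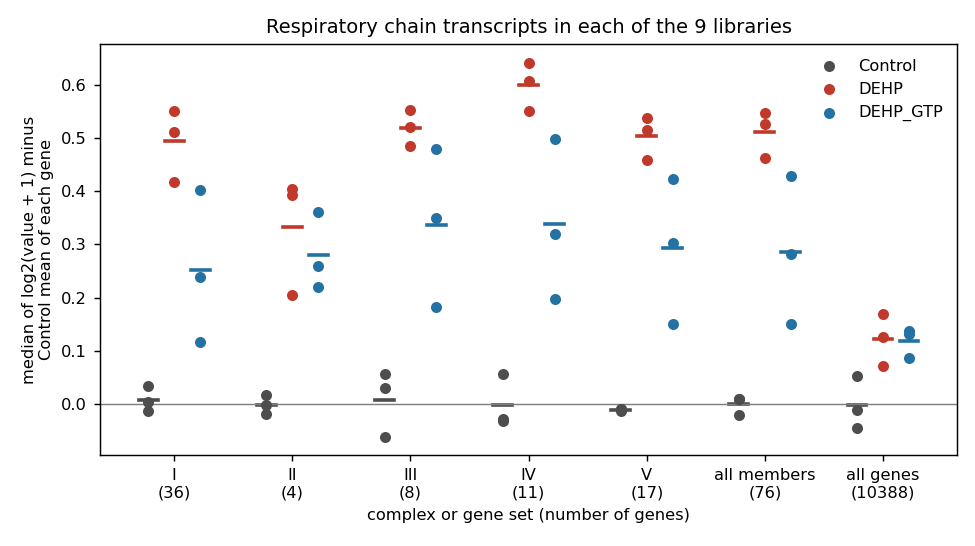
Level of the tested subunits of each complex, of all members and of all tested genes in each of the 9 libraries, as the median over genes of the log2 difference from the Control mean (points), with a bar for each group's mean. Over all 76 members, the medians lay at -0.02 to 0.01 in Control, 0.46 to 0.55 in DEHP and 0.15 to 0.43 in DEHP_GTP libraries, where replicate 1 was lowest and replicate 2 highest.

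Complex I, NADH dehydrogenase, takes in electrons from NADH. Here 34 of 36 subunits rose under DEHP, with a median log2 fold change of 0.50. Its accessory subunits, which surround the catalytic core and are needed for assembly and stability, had a median of 0.53 over 29 genes. The 7 nuclear-encoded core subunits, which carry the flavin and the iron-sulphur clusters, had a median of 0.32, and 6 of them rose. With Mup genes left out of the totals, 0 of 7 core and 18 of 29 accessory subunits rose, with medians of 0.10 and 0.32. Under quantile normalization the counts were 0 and 12, with medians of 0.0009 and 0.26. With the length trend removed they were 0 and 6, with medians of 0.09 and 0.18. In these settings 7.74%, 8.88% and 9.0% of all genes rose. The difference between the roles was not tested.

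Ndufa5, an accessory subunit of the matrix arm, had the smallest p in complex I. Its values were 136, 123 and 135 in Control, 217, 222 and 232 in DEHP, and 154, 188 and 172 in DEHP_GTP libraries. Each group lay apart from the other groups, with DEHP highest. Against Control it rose by a log2 fold change of 0.77 ± 0.09 (SE, limma adjusted p = 0.000472), or 1.7-fold. Ndufa4 was the most abundant member filed under complex I, at 1089.6, 1075 and 1009 in Control, 1509, 1658 and 1601 in DEHP, and 1302, 1421 and 1357 in DEHP_GTP libraries. It rose by 0.59 ± 0.08 (SE, limma adjusted p = 0.000864), and again no groups overlapped. Ndufa3, a small accessory subunit of the membrane arm and the next most abundant, stood at 859.5, 808 and 785 in Control and 1334, 1249 and 1308 in DEHP libraries. It rose by 0.67 ± 0.10 (SE, limma adjusted p = 0.00147). In DEHP_GTP libraries its values of 822, 1072 and 969.5 reached down into the Control range.

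A pair of complex I subunits was not called. Ndufs1, the largest core subunit, which holds iron-sulphur clusters, stood at 39.0, 40.0 and 38.0 in Control and 42.3, 46.9 and 47.9 in DEHP libraries (log2 fold change 0.22 ± 0.08 SE, limma adjusted p = 0.0597). The groups did not overlap, and with DEHP replicate 1, its lowest, left out the change was 0.28 with an adjusted p of 0.0407. Ndufa13, an accessory subunit also known as GRIM-19, stood at 124, 111 and 135 in Control and 136, 158 and 153 in DEHP libraries, a log2 fold change of 0.27 ± 0.11 (SE, limma adjusted p = 0.0854). The highest Control library nearly touched the lowest DEHP library. Under quantile normalization both fold changes were -0.02.

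**Figure D2:**
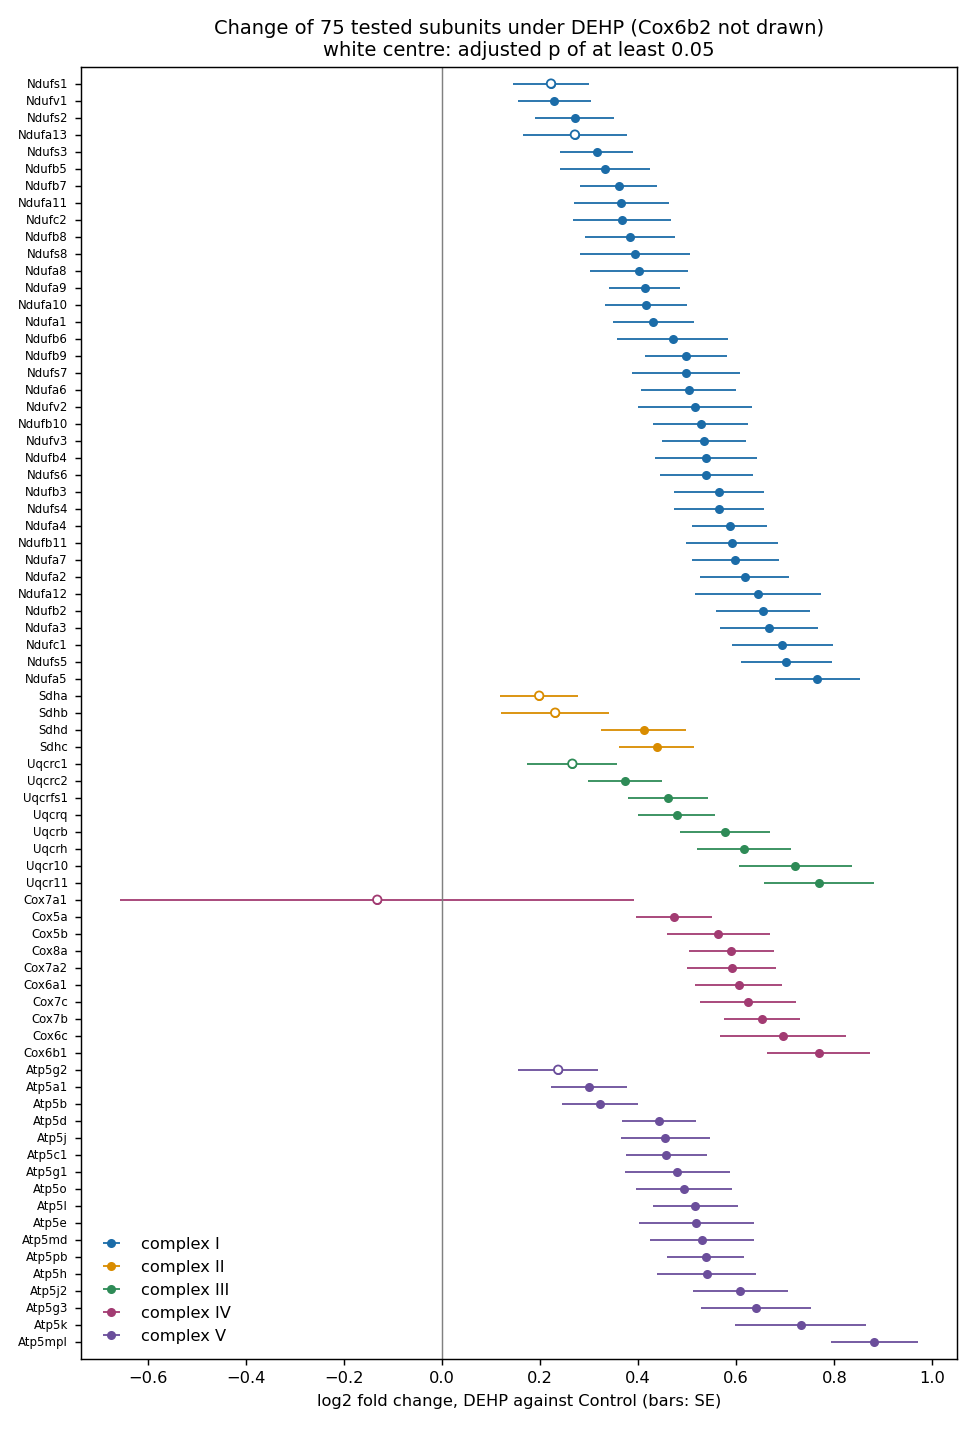
Log2 fold change of DEHP against Control for 75 tested subunits, ordered within each complex, with bars for the SE and white centres for an adjusted p of at least 0.05. Cox6b2, at 3.07, is not drawn. Points lie to the right of 0 for all subunits drawn except Cox7a1.

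Complex II, succinate dehydrogenase, is the complex shared with the tricarboxylic acid cycle and is made only of nuclear-encoded subunits. Its median log2 fold change of 0.32 was the lowest of the 5 complexes, and 2 of its 4 members were called. With the length trend removed the median was 0.11, again the lowest. Both membrane anchors rose. Sdhc, which helps bind coenzyme Q, stood at 172, 163 and 172 in Control, 221, 233 and 235 in DEHP, and 199, 228 and 203 in DEHP_GTP libraries. Its rise was 0.44 ± 0.08 (SE, limma adjusted p = 0.00294). The other anchor, Sdhd, stood at 116, 115 and 111 in Control, 142, 158 and 154 in DEHP, and 131, 154 and 158 in DEHP_GTP libraries, and rose by 0.41 ± 0.09 (SE, limma adjusted p = 0.007). For both, every Control library lay below every treated library.

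Neither catalytic subunit of complex II was called. Sdha, the flavoprotein that oxidises succinate, stood at 138, 139.8 and 134 in Control, 146, 175 and 154 in DEHP, and 168, 166 and 164 in DEHP_GTP libraries, with 0.20 ± 0.08 for DEHP (SE, limma adjusted p = 0.0914). Sdhb, the iron-sulphur subunit and the most abundant of the complex, stood at 227, 219 and 234 in Control and 226, 288 and 289 in DEHP libraries, with 0.23 ± 0.11 (SE, limma adjusted p = 0.152). DEHP replicate 1 lay within the Control range for Sdhb alone among these 4 genes. With that library left out, Sdhb was called higher, at 0.35 (adjusted p = 0.0292). Under quantile normalization Sdha was at -0.10 and Sdhb at -0.09, so their direction depended on the scaling.

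In complex III, the cytochrome bc1 complex, 7 of 8 members rose and the median log2 fold change was 0.53. The 5 small subunits all rose, with a median of 0.62, and the 3 larger ones, core proteins Uqcrc1 and Uqcrc2 and the Rieske protein Uqcrfs1, had a median of 0.37. Uqcr11, the smallest subunit of the complex, was at 655, 586 and 738 in Control, 1032, 1188 and 1144 in DEHP, and 754, 939 and 831 in DEHP_GTP libraries. It rose by 0.77 ± 0.11 (SE, limma adjusted p = 0.00128), and its 3 groups did not overlap. Uqcrb, which lies at the coenzyme Q site, was at 604, 549 and 549 in Control and 813, 829.6 and 899 in DEHP libraries, a rise of 0.58 ± 0.09 (SE, limma adjusted p = 0.002). Uqcrh, the hinge protein next to cytochrome c1, was at 296, 259 and 286 in Control and 389, 474 and 429 in DEHP libraries, a rise of 0.62 ± 0.10 (SE, limma adjusted p = 0.00186). Here too no DEHP library reached down to Control.

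Uqcrc1 was the complex III member that was not called. It was at 179, 186 and 199 in Control, 203, 237 and 241 in DEHP, and 205, 233 and 233 in DEHP_GTP libraries, a log2 fold change of 0.27 ± 0.09 for DEHP (SE, limma adjusted p = 0.0577). Both treated groups lay above all Control libraries. It passed the threshold without DEHP replicate 1 (0.34, adjusted p = 0.0256) and without DEHP_GTP replicate 1 (0.27, adjusted p = 0.0449), a library that enters this comparison only through the shared estimate of spread. Under quantile normalization it was at -0.05.

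Complex IV had the largest median log2 fold change, 0.60, and 10 of its 11 members rose. With the length trend removed its median was 0.21, as was that of complex III. Its nuclear-encoded subunits surround a mitochondrially encoded core, and several exist as isoforms for different tissues. Cox7c, the most abundant subunit of all, was at 1234, 1158 and 1160.5 in Control, 1773, 1987 and 1726 in DEHP, and 1471, 1779.7 and 1462 in DEHP_GTP libraries. It rose by 0.62 ± 0.10 (SE, limma adjusted p = 0.00187). Cox6a1, the form of subunit 6a found in most tissues, was at 1106, 1106 and 1059 in Control and 1596, 1565 and 1826 in DEHP libraries and rose by 0.60 ± 0.09 (SE, limma adjusted p = 0.00128). For both genes the lowest DEHP library stood well above the highest Control library.

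Cox7b, a small membrane subunit, had the smallest p in complex IV. Its values were 179.7, 164 and 175 in Control, 273, 285 and 259 in DEHP, and 218, 246 and 236 in DEHP_GTP libraries, and none of the groups overlapped. The rise under DEHP was 0.65 ± 0.08 (SE, limma adjusted p = 0.00057). Cox6b1, the widespread form of a subunit on the side facing the intermembrane space, was at 839, 741 and 747 in Control, 1182, 1323 and 1469 in DEHP, and 923, 1110.3 and 1029 in DEHP_GTP libraries. It rose by 0.77 ± 0.11 (SE, limma adjusted p = 0.00101), again with no overlap.

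Cox7a1, the form of subunit 7a typical of heart, skeletal muscle and brown fat, was the exception in complex IV. It was at 37.8, 36.4 and 8.11 in Control, 19.8, 19.2 and 22.96 in DEHP, and 12.9, 13.1 and 12.9 in DEHP_GTP libraries. The high values were those of Control replicates 1 and 2, the libraries with Ucp1 and Cox8b, and replicate 3 lay below all 6 treated libraries. Over the 3 Control libraries the log2 fold change of DEHP was -0.13 ± 0.52 (SE, limma adjusted p = 0.888). Without Control replicate 1 it was 0.22 (adjusted p = 0.820) and without replicate 2 it was 0.20 (adjusted p = 0.826). Without replicate 3 it was -0.82 and called lower (adjusted p = 0.00167), and with replicate 3 as the lone control, assumed to vary like the other groups, it was 1.24 and called higher (adjusted p = 0.00774). Its liver counterpart Cox7a2 was at 189, 177 and 174 in Control and 261, 282 and 274 in DEHP libraries, and rose by 0.59 ± 0.09 (SE, limma adjusted p = 0.00172).

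Complex V, the ATP synthase, joins a catalytic head to a rotating ring in the membrane by a central and a peripheral stalk. Of its 17 members 16 rose, with a median log2 fold change of 0.52. By role the medians were 0.44 for 5 subunits of the head and central stalk, 0.52 for 4 of the peripheral stalk, 0.48 for 3 genes of the ring and 0.61 for 5 small membrane subunits. Atp5mpl, a small proteolipid of the membrane part, had the smallest p of any member. It was at 422, 391 and 399 in Control, 726, 775 and 736 in DEHP, and 508, 626 and 542 in DEHP_GTP libraries, 3 groups with clear gaps between them. Its rise was 0.88 ± 0.09 (SE, limma adjusted p = 0.000342), or 1.84-fold.

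Atp5md, a small subunit linked to the pairing of ATP synthases and the most abundant of complex V, was at 1129.6, 1081 and 975 in Control, 1558, 1428 and 1616 in DEHP, and 1089, 1397 and 1269.8 in DEHP_GTP libraries. Against Control it rose by 0.53 ± 0.11 (SE, limma adjusted p = 0.0056) under DEHP, while DEHP_GTP replicate 1 lay inside the Control range. Atp5j2, subunit f of the membrane part, was at 849, 826 and 825 in Control and 1177, 1293 and 1348 in DEHP libraries, a rise of 0.61 ± 0.10 (SE, limma adjusted p = 0.00199). Atp5pb, subunit b of the peripheral stalk, was at 153, 156 and 150.1 in Control, 219, 232 and 216 in DEHP, and 190.3, 226 and 204 in DEHP_GTP libraries, a rise of 0.54 ± 0.08 (SE, limma adjusted p = 0.00136). No Control library of these genes reached the DEHP values.

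The proton-carrying c ring is made from 3 genes, Atp5g1, Atp5g2 and Atp5g3, which are known to encode the same mature protein behind different import signals. Atp5g3 rose by 0.64 ± 0.11 (SE, limma adjusted p = 0.003), from 418, 416 and 489.8 to 648, 719 and 694. Atp5g1 rose by 0.48 ± 0.11 (SE, limma adjusted p = 0.00903), from 379.9, 379.7 and 416 to 538, 542 and 559.5. For Atp5g2 the values were 277, 282 and 276 in Control and 326, 351 and 309 in DEHP libraries, 0.24 ± 0.08 (SE, limma adjusted p = 0.0558). Its groups did not overlap, and it passed the threshold when DEHP_GTP replicate 1 was left out of the fit (adjusted p = 0.0377). The share of Atp5g2 in the sum of the 3 was 23.4% to 26.2% in Control, 19.8% to 21.8% in DEHP and 21.8% to 24.2% in DEHP_GTP libraries, and that of Atp5g3 was 38.6% to 41.4%, 42.8% to 44.6% and 41.8% to 43.0%. Whether the 3 genes differed in their change was not tested.

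The largest fold change of any member belonged to Cox6b2, the form of subunit 6b known from testis, which was singled out after its values were seen. It was at 0.62, 1.16 and 0.89 in Control, 25.4, 10.1 and 12.5 in DEHP, and 2.28, 14.9 and 3.97 in DEHP_GTP libraries. The lowest treated library stood above every Control library, and DEHP_GTP replicate 2 reached into the DEHP range. Its rise under DEHP was 3.07 ± 0.60 (SE, limma adjusted p = 0.0105), or 8.41-fold on the log2(value + 1) scale, and it kept its call in 20 of 21 other settings. The exception was the comparison with Control replicate 3 as the lone control (3.06, adjusted p = 0.115). Beside Cox6b1, its level stayed small: Cox6b2 was 0.0739% to 0.157% of Cox6b1 in Control, 0.76% to 2.15% in DEHP and 0.247% to 1.34% in DEHP_GTP libraries. Kmt5c, the tested neighbour of Cox6b2 in the annotation, was at 5.79 to 8.40 over all 9 libraries and was not called (0.15 ± 0.14 SE, limma adjusted p = 0.485).

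**Figure D3:**
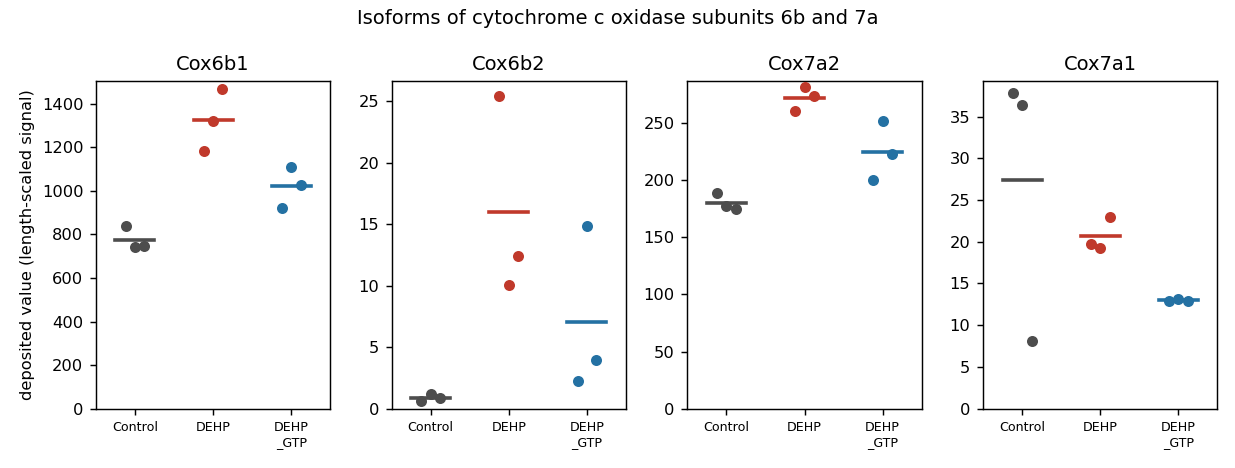
Deposited values of the isoforms of complex IV subunits 6b and 7a in each of the 9 libraries (points), with the mean of each group as a bar and each vertical axis starting at 0. Cox6b1 and Cox7a2 are higher in every DEHP library than in Control, Cox6b2 is near 0 in Control and between 10.1 and 25.4 in DEHP libraries, and Cox7a1 is high in 2 of 3 Control libraries.

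The next comparison asked whether polyphenols given with the phthalate changed the response to it. Member values were lower in DEHP_GTP than in DEHP libraries for most subunits, but none passed the test. At an adjusted p below 0.05, 0 of 76 members and 0% of all genes were called lower in limma, and the count was also 0 without the trend and robust estimates. At an unadjusted p below 0.05, 46 of 76 members were lower (60.5%), where 8.82% of all genes were. All 3 DEHP_GTP libraries lay below all 3 DEHP libraries in 36 members (47.4%), where 10.4% of all genes did so. The median log2 fold change was -0.24 over members and -0.01 over all genes, and 72 of 76 members were below 0. With Mup genes left out of the totals the median was -0.11, with 16 members lower at an unadjusted p below 0.05 (all genes 2.92%). With the length trend removed the median was -0.07, with 9 members lower (all genes 6.56%), and under quantile normalization it was -0.15, with 20 lower (all genes 7.09%). With each library left out, that count ran from 25 without DEHP_GTP replicate 1 (all genes 5.53%) to 57 without DEHP_GTP replicate 2 (all genes 10.2%). It was 27 without DEHP replicate 2 (all genes 10.7%) and 30 without DEHP replicate 3 (all genes 6.54%).

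The smallest p values of that comparison belonged to Atp5mpl, Ndufv3 and Ndufa3. Atp5mpl had a log2 fold change of -0.42 ± 0.09 (SE, limma adjusted p = 0.122), from the values given above. Ndufv3, an accessory subunit beside the site where NADH is oxidised, was at 218, 219.6 and 259 in Control, 326, 335 and 347 in DEHP, and 243, 269.9 and 253 in DEHP_GTP libraries, and had -0.39 ± 0.09 (SE, limma adjusted p = 0.122). Ndufa3 had -0.45 ± 0.10 (SE, limma adjusted p = 0.127). In each of these genes DEHP_GTP lay below DEHP without overlap. The 4 members above 0 were the core subunits Ndufs1 (0.09) and Uqcrc2 (0.02), the catalytic subunit Sdha (0.07) and Atp5a1 (0.03), the alpha subunit of the ATP synthase head. By role, the medians were -0.26 for accessory and -0.12 for core subunits of complex I, and -0.33 for small and -0.02 for larger subunits of complex III.

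Within the DEHP_GTP group the order of the libraries was nearly the same for all members. Replicate 1 was the lowest of its group in 69 of 76 members and replicate 2 the highest in 70. In DEHP, replicate 1 was the lowest in 56. The DEHP_GTP mean lay between the Control and DEHP means in 69 members, above DEHP in 5 and below Control in 2, Ndufa13 and Cox7a1. Each group enters 2 of the 3 comparisons, so their values are set side by side and are not independent.

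Set against Control, DEHP_GTP libraries had 26 members called higher (34.2%) and 0 called lower, where 9.68% of all genes were called higher and 0.76% lower. No member was lower at an unadjusted p below 0.05 either, and 59 of 76 were higher at that level, where 2669 of all 10388 genes were. All 3 DEHP_GTP libraries lay above all 3 Control libraries in 55 members, where 31.8% of all genes did so. The median log2 fold change was 0.29, against 0.11 over all genes. With Mup genes left out of the totals, 6 members were called, where 2.87% of all genes were called higher, and the median was 0.20. Under quantile normalization or with the length trend removed 0 were called, with medians of 0.11 and 0.12. Of all genes, 1.66% and 1.87% were called higher there. At an unadjusted p below 0.05 in either direction, 18 and 24 members passed in those last settings. By complex, 9 of 36 members of complex I, 2 of 4 of complex II, 3 of 8 of complex III, 5 of 11 of complex IV and 7 of 17 of complex V rose. Of the 69 members called under DEHP, 25 were also called here, and the 26th, Ndufs1, was called here alone (0.31 ± 0.08 SE, limma adjusted p = 0.0355). That a member was called in only 1 of these comparisons does not show that the treated groups differ.

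Cox7b had the smallest p of the members in this comparison, with a rise of 0.43 ± 0.08 (SE, limma adjusted p = 0.0126), and all 3 of its groups stood apart. Atp5pb rose by 0.43 ± 0.08 (SE, limma adjusted p = 0.0135) and Atp5mpl by 0.46 ± 0.09 (SE, limma adjusted p = 0.0151). These calls stood close to the threshold. Atp5pb lost its call without Control replicate 1 (0.43, adjusted p = 0.0532) or replicate 3 (0.41, adjusted p = 0.0530), and Atp5mpl without Control replicate 2 (0.44, adjusted p = 0.0525) or replicate 3 (0.45, adjusted p = 0.0585). The count of members called was as sensitive: 3, 4 and 2 without Control replicates 1, 2 and 3, and 46, 3 and 7 without DEHP_GTP replicates 1, 2 and 3. Of all genes, 2.36%, 4.2% and 2.08% were called higher without those Control replicates. Without those DEHP_GTP replicates the shares were 9.9%, 2.16% and 3.11%. Of the 2 called without Control replicate 3, 1 was higher and 1, Cox7a1, was lower. The members' median ranged from 0.21 to 0.36 over these fits.

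Most subunits have short transcripts, and the change under DEHP went with transcript length across the whole table. The median length was 849.5 bases over members and 2835 over all tested genes with a length. It was 732 for accessory and 1623 for core subunits of complex I, and 535 for small and 1653 for larger subunits of complex III. For complex IV it was 618, and for the catalytic subunits and membrane anchors of complex II it was 2021 and 2201. Across the 76 members, Spearman's rho between length and log2 fold change was -0.42 for DEHP against Control, 0.54 for DEHP_GTP against DEHP and 0.00 for DEHP_GTP against Control. Across 10267 tested genes the values were -0.28, 0.37 and -0.07. These are descriptions across genes of the same libraries, which are not independent replicates.

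Members and other tested genes were also set side by side within classes of transcript length. Below 800 bases, 34 of 36 members rose (94.4%, median log2 fold change 0.58), where 155 of 325 other genes did (47.7%, median 0.37). From 800 to 1500 bases, 20 of 22 members rose (90.9%, median 0.46), where 504 of 1384 other genes did (36.4%, median 0.24). From 1500 to below 10000 bases, 15 of 18 members rose (83.3%, median 0.43), where 1487 of 8317 other genes did (17.9%, median 0.10). That class is wide, so its members and other genes need not be of like length. Longer transcripts were left out of the classes. With the trend on length removed from each library, 18 members were called higher, where 9.0% of all genes were. The members' median was then 0.19, against -0.01 over all genes. Among those 18 were Ndufa5, Sdhc, Uqcr11, Cox7b, Cox6b1 and Atp5mpl. For complexes I to V the medians in that setting were 0.17, 0.11, 0.21, 0.21 and 0.19. What part length has in the members' change was not tested further.

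**Figure D4:**
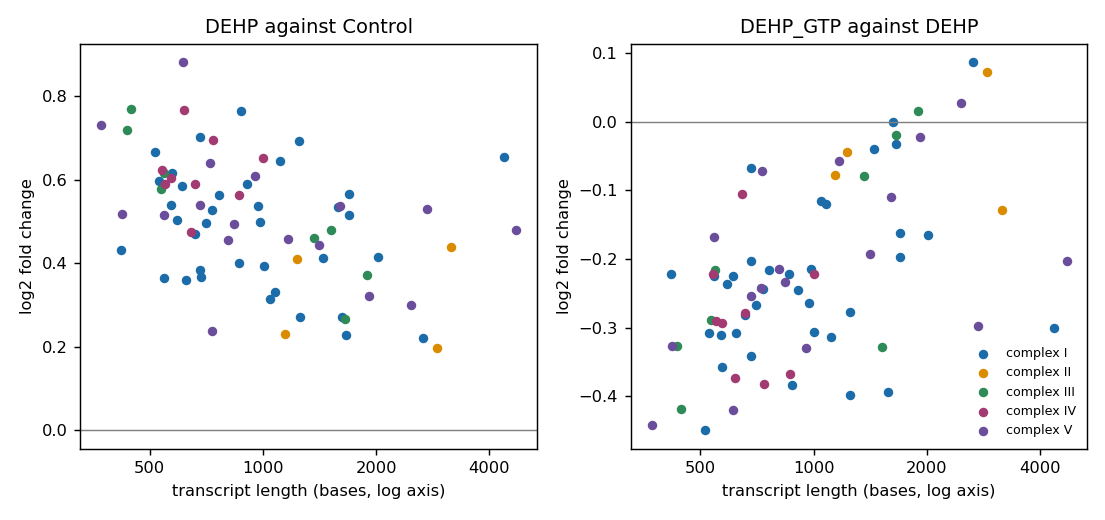
Log2 fold change of each tested subunit against the length of its principal transcript in bases, on a log axis, for DEHP against Control and for DEHP_GTP against DEHP; Cox6b2 and Cox7a1 are not drawn. Short transcripts had the larger rises under DEHP and the lower values in DEHP_GTP, with Spearman's rho of -0.47 and 0.52 over the 74 members drawn.

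The count of members called under DEHP depended on how libraries were scaled, while their median stayed above that of all genes. Quantile normalization gave 28 called members and a median of 0.23, centring on the median gene 55 and 0.40, and totals without Mup genes 46 and 0.30. The median over all genes moved from 0.12 to -0.00, 0.01 and -0.06 in these settings. Members exceeded it by 0.40 as reported, and by 0.23, 0.40 and 0.36 in these settings. Over all genes, the calls were 2248 higher and 406 lower as reported, but 922 and 833 under quantile normalization. They were 1271 and 736 when centred on the median gene, and 804 and 996 with totals without Mup genes. No member was called lower under any of these scalings. With Control replicate 3, the library without Ucp1, as the lone control, the members' median was 0.47, against 0.18 over all genes. Ndufa5, Ndufc1, Ndufs4, Ndufs5, Cox6b1, Cox7b and Atp5mpl were called in all 21 other settings, and 63 of 76 members stayed above 0 in every setting.

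**Figure D5:**
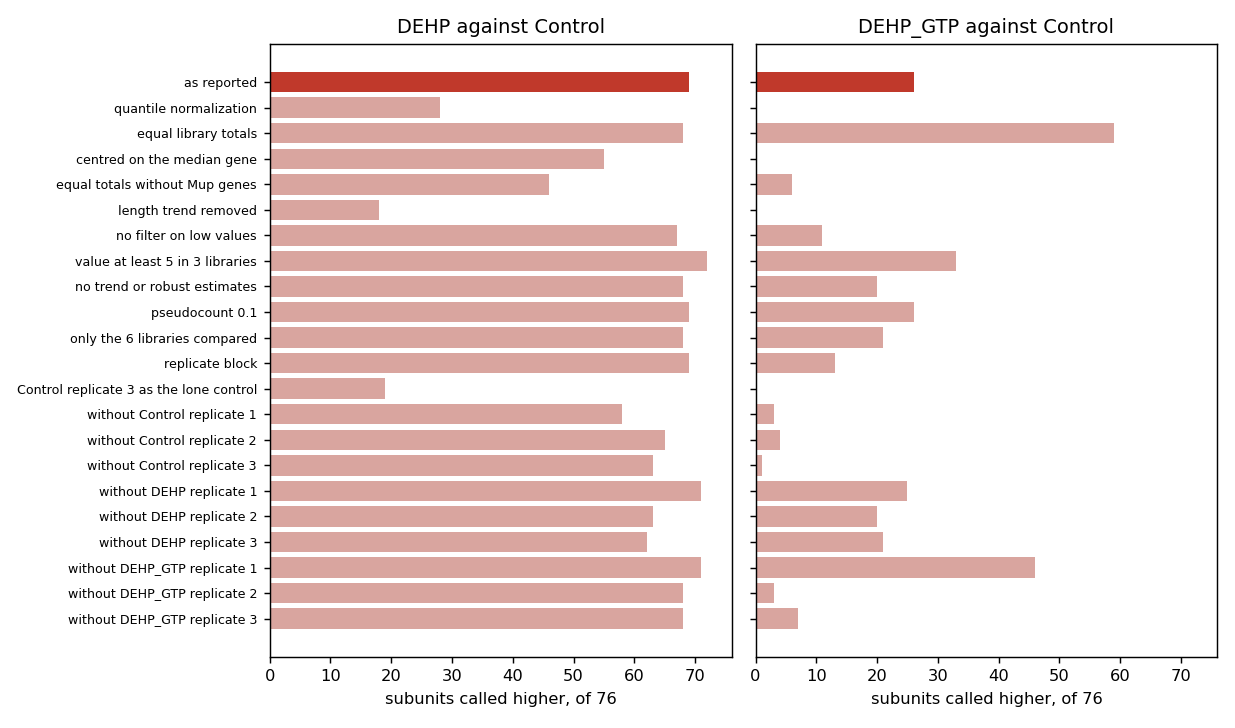
Number of the 76 tested subunits called higher (adjusted p below 0.05) as reported and in each of the 21 other settings, for DEHP against Control and DEHP_GTP against Control, on axes that start at 0. For DEHP the bars run from 18, with the length trend removed, to 72, with a filter of at least 5, and for DEHP_GTP they run from 0 to 59.

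Other genes of the pathway came from lists of assembly factors, electron carriers, the tricarboxylic acid cycle, membrane carriers and regulators. Of 49 assembly factors, which build the complexes without being part of them, 23 rose under DEHP and 0 fell, with a median log2 fold change of 0.35, where 21.6% of all genes rose. With the length trend removed 4 rose and 1 fell, where 9.0% of all genes rose. With Mup genes left out of the totals 6 rose, where 7.74% of all genes did. In the fit as reported, the counts were 4 of 14 for complex I, 3 of 4 for complex II, 3 of 6 for complex III, 12 of 22 for complex IV and 1 of 3 for complex V. Complex I factors thus lay near the 21.6% of all genes. Cox19 and Cox17, which bring copper toward cytochrome c oxidase, rose by 0.89 (limma adjusted p = 0.000134) and 0.76 (limma adjusted p = 0.00143). Cox19 was at 38.0, 35.2 and 36.6 in Control and 64.2, 71.7 and 69.8 in DEHP libraries, with no overlap. Of 4 listed respiratory chain genes in the table whose symbols the pattern does not match, Ndufab1, the mitochondrial acyl carrier protein, rose by 0.97 (limma adjusted p = 0.000458). Cox4i1 rose by 0.48 and Cyc1 by 0.32, and Cox7a2l was not called. Ndufa4l2, a relative of Ndufa4 that the pattern also does not match, fell by 0.69 (limma adjusted p = 0.0333) on the log2 scale, from 2.75, 5.50 and 3.70 to 2.06, 2.44 and 1.59. Atpif1, the inhibitor of the ATP synthase running in reverse, rose by 0.94 (limma adjusted p = 0.00149), from 16.4, 17.3 and 17.8 to 29.8, 34.0 and 38.2.

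Of 16 tested electron carriers and coenzyme Q synthesis genes, 11 rose under DEHP and 0 fell, against 5 with Mup genes left out of the totals and 6 with the length trend removed, where 1 fell. Of all genes, 21.6% rose as reported, 7.74% without Mup genes in the totals and 9.0% with the length trend removed. Coq8a, an atypical kinase of the coenzyme Q pathway, rose by 1.61 (limma adjusted p = 0.00023), from 57.3, 55.0 and 54.5 to 145, 153 and 229. Etfdh, which passes electrons from fatty acid oxidation to coenzyme Q, rose by 0.91 (limma adjusted p = 0.00058). Cytochrome c (Cycs) rose by 0.64 (limma adjusted p = 0.00382). In the tricarboxylic acid cycle 7 of 13 genes rose and 0 fell (3 without Mup genes, 4 with the length trend removed), among them Suclg2 (0.64), Mdh2 (0.55) and Suclg1 (0.51). Of 10 tested carriers and pores of the mitochondrial membranes 6 rose (2 without Mup genes, 1 with the length trend removed), among them the uncoupling protein Ucp2 (2.45, limma adjusted p = 0.0049), the ADP and ATP exchanger Slc25a5 (0.45) and the outer membrane pore Vdac3 (0.42).

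Of 12 regulators known for respiratory genes, 2 rose and 2 fell, where 21.6% of all genes rose and 3.91% fell. Without Mup genes in the totals 1 rose and 2 fell, and with the length trend removed 1 rose and 3 fell. In those settings 7.74% and 9.0% of all genes rose. The coactivator Ppargc1a rose by 0.92 (limma adjusted p = 0.00976) at low levels, from 1.58, 1.46 and 0.92 to 2.55, 4.12 and 3.57, and the mitochondrial DNA factor Tfam rose by 0.26 (limma adjusted p = 0.0238). The genes of ERR-alpha (Esrra) and of the coactivator Pprc1 fell, by 0.29 (limma adjusted p = 0.0372) and 0.36 (limma adjusted p = 0.0437) on the log2 scale. Nrf1, Gabpa and Yy1, whose motifs were searched above, were at 0.13, -0.05 and 0.02 and were not called. In DEHP_GTP against Control, 8 of 49 assembly factors, 5 of 16 carriers and coenzyme Q genes, 4 of 13 cycle genes, 5 of 10 membrane carriers and 1 of 12 regulators rose, and 0 of these lists' genes fell. Among all genes 9.68% rose in that comparison. Without Mup genes in the totals the counts were 1, 3, 1, 1 and 1, where 2.87% of all genes rose. With the length trend removed they were 0, 2, 1, 1 and 0, where 1.87% of all genes rose. None of these lists' genes was called between DEHP_GTP and DEHP.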

How the data were processed

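Per the labels' protocols, polyadenylated liver RNA was captured with oligo(dT), broken up and copied from random hexamers. The deposited values were a signal per gene symbol and library, of the FPKM or TPM kind from the values. Which of these it is, how reads were aligned and counted, and against what annotation is not stated in the labels or the table. The submitters' processing notes name mm9, CASAVA 1.7 and limma without their roles. Depth is unknown, so no counting interval is given.

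Groups came from the sample titles. A gene was kept if 3 or more of the 9 libraries had a value of 1 or higher, and log2(value + 1) of all 10388 was fitted with limma (version 3.58.1, R 4.3.3, trend and robust estimates) over all 9 libraries, which shared an estimate of spread. The code was tested on simulated data. P-values were adjusted over all genes tested by the Benjamini-Hochberg method, and a member was called below 0.05. The members, the related gene lists and the tests were chosen with earlier results of these data known, so no list is independent support.

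Described in full were, in each complex, the 2 members with the highest mean, the 2 with the smallest p against Control and up to 4 that were not called or were lower. To these were added the 3 with the smallest p in each other comparison and the isoform sets. Other members named were chosen after their values were seen. Lengths were those of GENCODE M21 principal transcripts, which replaced a planned RefSeq length because only gene spans were given. Of the tested members 76 matched RefSeq symbols, 4 have a pseudogene named for them and 25 share exon sequence with another gene, 19 of them with a gene of the table, where reads could be split. Alternatives were other scalings, filters, a pseudocount of 0.1, limma without trend and robust estimates, only the 6 libraries compared, a replicate block, removal of the length trend, and each library left out.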

Additional observations from a re-analysis of the deposited data

How the results depend on the processing

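For DEHP against Control, the count of 69 called members became 28 under quantile normalization, 18 with the length trend removed and 19 against Control replicate 3 alone, a fit that lends that library the spread of the other groups. Of all genes, 21.6% were called higher as reported, 8.88% under quantile normalization and 9.0% with the length trend removed. Leaving out each library gave 58 to 71 called members, where 14.2% to 22.3% of all genes were called higher, and medians of 0.49 to 0.55. The median of 0.52 became 0.23 under quantile normalization, 0.40 when centred on the median gene, 0.30 with totals without Mup genes and 0.19 with the length trend removed. For DEHP_GTP against DEHP, no setting called a member. The median of -0.24 became -0.11 with totals without Mup genes and -0.0697 with the length trend removed, and ran from -0.31 to -0.17 with each library left out.

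For DEHP_GTP against Control, the count of 26 was the least stable. It became 0 under quantile normalization, centring on the median gene, removal of the length trend and the lone control, 59 with equal library totals, 6 with totals without Mup genes, 11 with no filter on low values and, counting calls in either direction, 2 to 46 with each library left out. The 2, without Control replicate 3, were 1 higher and Cox7a1 lower. Of all genes, 9.68% were called higher as reported, 1.66% under quantile normalization, 1.73% when centred and 1.87% with the length trend removed. The share was 18.75% with equal library totals, 2.87% without Mup genes and 3.06% with no filter on low values. The median of 0.29 became 0.11 (quantile), 0.17 (centred), 0.20 (without Mup genes) and 0.12 (length). Direction turned against Control under DEHP for Atp5g2 (-0.12, length), Sdha (-0.10 quantile, -0.0167 without Mup genes), Sdhb (-0.0893 quantile, -0.0448 length), Uqcrc1 (-0.0467), Ndufa13 (-0.022) and Ndufs1 (-0.0176), the last 3 under quantile normalization, and Cox7a1 (1.24 with the lone control, 0.22 and 0.20 without Control replicates 1 and 2). Without Control replicate 3, Cox7a1 kept its direction and was called lower (-0.82). The cause was not tested.

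Same-numbered libraries did not deviate together: correlations of their deviations from the group means ran from -0.26 to 0.17. The replicate block left 69 calls for DEHP against Control and 0 for DEHP_GTP against DEHP, and gave 13 for DEHP_GTP against Control. Of all genes, 18.7% were called higher in that fit for DEHP and 5.11% for DEHP_GTP against Control. Depth cannot be read from the files, which limits what is known of the precision of low members such as Cox6b2.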
